A study of Mus musculus with 16 samples.

Results

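Lysosomal hydrolases, lysosomal membrane proteins and subunits of the vacuolar proton pump were followed in bone marrow derived mast cells (BMMCs). The 37 genes were given as a list of names, chosen with earlier results of these data known: 9 cathepsins and other peptidases, 7 glycosidases, 4 lipid-degrading enzymes and saposins, 8 membrane proteins and channels, 8 subunits of the proton pump (V-ATPase) and 1 autophagy receptor. They stand among 39179 genes in the count tables and 13305 genes that were tested, and 37 of the 37 passed the filter on low counts. The cells came from male C57BL/6 mice aged 8 to 10 weeks that were PEP+/+ or PEP-/-, where PEP is the PEST-domain-enriched tyrosine phosphatase encoded by Ptpn22. All groups were grown for 4 weeks from bone marrow and sensitized with IgE for 3 h at 0.05 µg/ml as the labels give it (the study's text gives another dose). In each genotype the 4 groups were IgE alone, IgE DNP (the antigen dinitrophenol, 200 ng/ml for 1 h), IgE DEX (the glucocorticoid dexamethasone, 100 nM for 8 h) and IgE DNP DEX (both), with 2 samples per group and 16 samples in all. The labels call the samples biological replicates but do not give the number of mice behind them, so the p-values measure the spread between these samples.

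Lysosomes are acidic organelles in which proteases, glycosidases, lipases and sulfatases break down cargo. The V-ATPase pumps protons across their membrane, and membrane proteins such as LAMP1, LAMP2 and the mucolipin channels protect the membrane or move ions and small molecules. The secretory granules of mast cells are related to lysosomes and hold lysosomal enzymes next to histamine and proteases, and release of beta-hexosaminidase, to which Hexa contributes a subunit, is a common measure of degranulation. CD63 lies in the membrane of lysosomes and granules and appears at the surface when granules fuse. The transcription factors TFEB and TFE3 drive many lysosomal genes through an E-box with the core CACGTG, AP-1 binds TGANTCA, and the glucocorticoid receptor binds paired copies of TGTTCT.

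Reads assigned to genes ranged from 8612531 to 22143526 per sample, and the 37 genes took 1.18% to 1.79% of them. Ptpn22 had 130 to 2799 reads in the 8 PEP+/+ samples and 0 to 55 in the 8 PEP-/- samples. The 10 mast cell markers summed to 67900 to 107000 CPM (read counts scaled to a common library size after TMM normalization), and none of them was under 5 CPM in all samples. Of 10 macrophage and monocyte markers, 8 were under 5 CPM in every sample, but the sum of the list was 69.9 to 232 CPM without DEX and 284 to 845 CPM with DEX, most of it from the chemokine receptor gene Cx3cr1 (63.6 to 836 CPM). The summed basophil markers were 539 to 882 CPM without DEX and 228 to 479 CPM with DEX, most of it from Cd200r3 (198 to 837 CPM). The neutrophil list reached 2.37 CPM, the T and B cell list 0.881 CPM and the erythroid list 6.38 CPM at most. The labels number 1 sample of each group and letter the other, and these 2 sets differed: reads outside annotated genes were 4.69% to 7.18% in the numbered set (replicate 1 throughout) and 8.35% to 11% in the lettered set (replicate 2). Fits were therefore also made with the set as a block, and their counts stand beside the others. In RNA from whole cultures, fewer cells of a type and less RNA per cell cannot be told apart.

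Promoters of 5 called members are shown as examples: 4 were picked because their window holds the E-box or AP-1 letters, and Sqstm1, whose change on antigen had the lowest p-value, holds neither. Ctsc, Hexa, Scarb2 and Cd63 were also called, and their windows, which hold neither set of letters, are not shown. Each is the RefSeq window of GRCm38.p6 from 250 bases before to 50 bases after a transcript start, 5′ to 3′ along the gene, and capitals mark CACGTG and TGANTCA. The windows are chr9:114400828-114401127 on the plus strand for Glb1, chrX:134600956-134601255 on the minus strand for Gla, chr3:146149924-146150223 on the plus strand for Mcoln2, chr10:60277378-60277677 on the plus strand for the first of the Psap starts, and chr11:50210771-50211070 on the minus strand for Sqstm1.
Glb1: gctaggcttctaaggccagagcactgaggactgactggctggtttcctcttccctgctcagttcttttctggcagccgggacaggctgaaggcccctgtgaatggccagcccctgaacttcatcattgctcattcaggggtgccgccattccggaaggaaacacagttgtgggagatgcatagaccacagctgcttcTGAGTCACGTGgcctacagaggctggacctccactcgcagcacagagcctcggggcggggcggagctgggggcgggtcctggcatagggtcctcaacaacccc
Gla: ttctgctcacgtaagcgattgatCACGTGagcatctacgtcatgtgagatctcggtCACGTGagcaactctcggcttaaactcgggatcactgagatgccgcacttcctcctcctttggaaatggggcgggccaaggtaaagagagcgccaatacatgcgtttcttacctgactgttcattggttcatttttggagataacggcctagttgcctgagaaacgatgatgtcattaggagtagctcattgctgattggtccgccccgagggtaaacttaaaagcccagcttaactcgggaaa
Mcoln2: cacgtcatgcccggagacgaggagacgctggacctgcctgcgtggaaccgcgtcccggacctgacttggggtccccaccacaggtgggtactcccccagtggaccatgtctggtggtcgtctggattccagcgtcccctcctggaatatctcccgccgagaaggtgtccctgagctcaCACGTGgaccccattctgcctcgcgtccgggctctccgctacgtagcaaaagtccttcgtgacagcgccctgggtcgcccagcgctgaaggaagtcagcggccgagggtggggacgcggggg
Psap: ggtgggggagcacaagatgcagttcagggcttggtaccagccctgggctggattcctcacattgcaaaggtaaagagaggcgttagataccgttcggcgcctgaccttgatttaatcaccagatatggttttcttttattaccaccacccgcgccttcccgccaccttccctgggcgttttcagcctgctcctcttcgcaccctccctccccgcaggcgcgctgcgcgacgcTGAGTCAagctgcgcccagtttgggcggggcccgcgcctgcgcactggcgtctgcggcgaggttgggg
Sqstm1: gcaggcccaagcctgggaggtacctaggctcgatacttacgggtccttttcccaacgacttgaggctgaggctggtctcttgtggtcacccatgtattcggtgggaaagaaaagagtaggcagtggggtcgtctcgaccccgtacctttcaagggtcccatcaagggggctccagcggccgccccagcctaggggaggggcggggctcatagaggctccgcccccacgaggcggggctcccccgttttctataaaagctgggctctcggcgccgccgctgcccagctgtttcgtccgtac
In Glb1 the AP-1 letters TGAGTCA began 53 bases before the start and ran into the E-box at 48 bases before it. Gla held 2 E-boxes, at 227 and 194 bases before the start, and both were part of the longer palindrome TCACGTGA. The Mcoln2 E-box began 72 bases before the start, and the AP-1 letters of Psap began 18 bases before it.

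Of the 37 genes, 30 had a RefSeq window, and no window was listed for Atp6v0d2, Atp6v1c1, Ctsh, Atp6v1b2, Atp6v1h, Asah1 and Ctsb. CACGTG, which reads the same on both strands, occurred in the windows of 13 of the 30 genes (43.3%), against 8.09% of 27025 genes with a window. The 13 were Ctsa, Ctsd, Ctsl, Gla, Glb1, Gaa, Naglu, Lamp1, Mcoln1, Mcoln2, Cln3, Atp6v0d1 and Atp6v1a, and Lamp1 held 4 copies. The longer palindrome TCACGTGA, each copy of which contains CACGTG, was found in 7 of the 30 (23.3%) against 1.12%. TGANTCA was found in 4 of the 30 (13.3%; Glb1, Neu1, Psap and Gpnmb) against 8.97%. The paired half-sites AGAACA and TGTTCT with 3 bases between them were found in 0 of the 30, and in 0.0111% of all genes, so an exact match was rare in any promoter window.

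In the 4 IgE samples, which had neither antigen nor DEX, the members spanned a wide range of levels. Measured in TPM, which scales reads by transcript length and library size, the aspartyl protease gene Ctsd was highest with 5440 ± 585 TPM (SD, n = 4), followed by Cd63 with 1420 ± 132 TPM, Sqstm1 with 662 ± 55.3 TPM, the saposin precursor gene Psap with 453 ± 35.7 TPM, Lamp1 with 444 ± 31.7 TPM, Hexa with 379 ± 67.8 TPM and Atp6v0d1 with 368 ± 28.5 TPM. Psap and Lamp1 did not differ beyond their spread, nor did Hexa and Atp6v0d1. Glb1 came next with 224 ± 34.3 TPM, close to the carboxypeptidase gene Ctsz with 210 ± 17.1 TPM. At the low end were Ctss with 5.15 ± 3.36 TPM, Atp6v0d2 with 3.82 ± 2.1 TPM, Mcoln2 with 1.32 ± 0.382 TPM, Ctsl with 0.846 ± 0.506 TPM, Ctsh with 0.178 ± 0.0638 TPM and Gpnmb with 0.168 ± 0.211 TPM. Of the cathepsin genes, Ctsh, Ctsl and Ctss were thus at low levels, while Ctsb had 144 ± 12.4 TPM and Ctsc 110 ± 37.4 TPM. Ctsh had 2 to 7 reads in each sample without DEX, and Gpnmb had 0 to 27 reads in any sample.

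**Figure D1:**
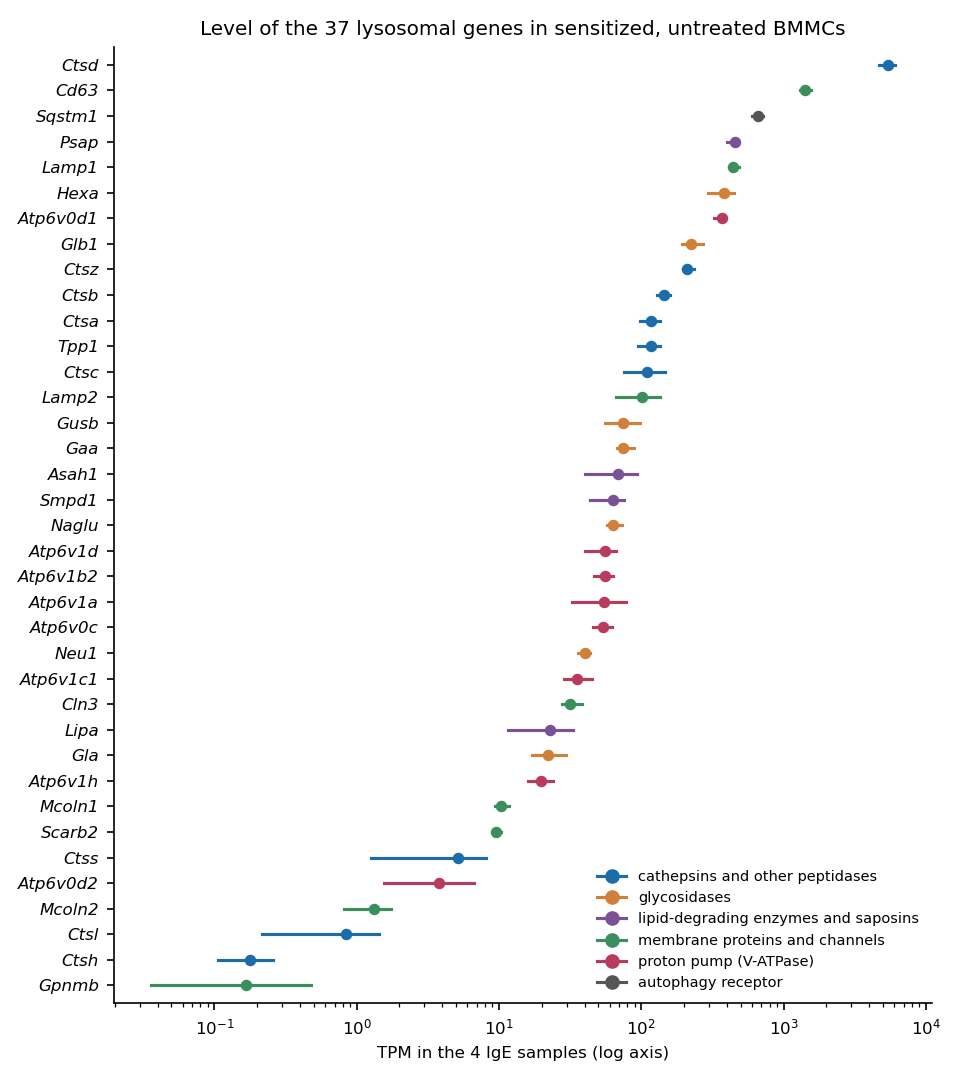
Level of each of the 37 genes in the 4 IgE samples in TPM on a log axis, where the point is the mean, the line runs from the lowest to the highest sample and colour gives the role. Ctsd lies highest at 5440 TPM and Gpnmb lowest at 0.168 TPM, and the lines are longest for Gpnmb, Ctsl and Ctss.

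Treatment was the largest source of variation for 24 of the 37 genes, the sample set for 11 and the genotype for 2. The shares are of the sum of squares of log2(CPM + 0.5) over the 16 samples, and the member median was 63.8% for treatment, 17.8% for the set and 3.32% for genotype, against 41.1%, 20.1% and 3.26% over all 13305 genes. Treatment took 98.5% for Glb1, 97.7% for Sqstm1 and 90.6% for Psap. The set took 86.7% for the acid ceramidase gene Asah1, 79.1% for the acid lipase gene Lipa, 78.2% for Atp6v1a and 69.5% for Ctss, and each of these was lower in the lettered sample of all 8 groups. Ctsa, Naglu and Cln3 went the other way and were higher in the lettered sample of all 8 groups. The genotype led for the tripeptidyl peptidase gene Tpp1 (63.7%) and for Gpnmb (45%). Gpnmb had 0 to 27 reads per sample and passed the filter only through PEP-/- samples, so its share is a description.

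**Figure D2:**
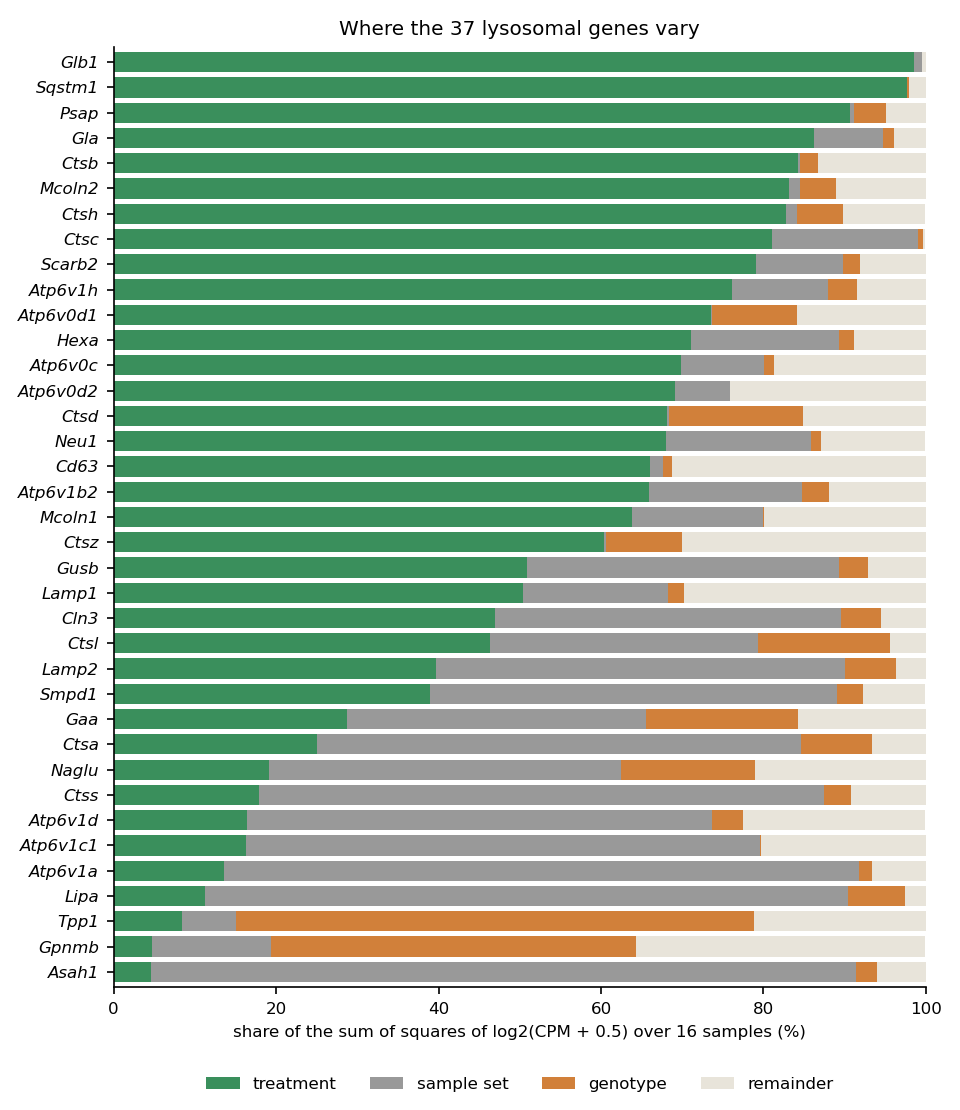
Stacked bars of the share (%) of each gene's sum of squares that goes with treatment, sample set, genotype and the remainder over 16 samples. Treatment fills 98.5% of the bar of Glb1, the set 86.7% of that of Asah1 and the genotype 63.7% of that of Tpp1.

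Antigen and DEX each moved a few members, mostly upward. A gene was called at a Benjamini-Hochberg adjusted p under 0.05 in edgeR's quasi-likelihood test, over all 13305 genes and as the mean over both genotypes. With DNP alone 4 members rose and 0 fell, beside 9.07% of all genes called higher and 7.58% called lower. An unadjusted p under 0.05 was seen for 12 members, beside 3646 of all genes. With the set as a block 14 rose and 2 fell, beside 18.6% and 19.3%. With DEX in sensitized cells 4 members rose and 1 fell, beside 5.4% and 3.98%, and with the block 11 rose and 2 fell, beside 12.9% and 13.8%. With DEX in activated cells (IgE DNP DEX against IgE DNP) 4 rose and 0 fell, beside 5.67% and 4.99%. Here 11 members had an unadjusted p under 0.05, beside 3180 of all genes. With the block 15 rose and 3 fell, beside 15.9% and 17.4%. With DNP under DEX (IgE DNP DEX against IgE DEX) 5 rose and 0 fell, beside 7.19% and 5.42%. Here 13 members had an unadjusted p under 0.05, beside 3491 of all genes. With the block 15 rose and 4 fell, beside 18.4% and 19.2%. DESeq2 called 10, 8, 7 and 10 members in these comparisons, in that order, beside 20.3%, 12.5%, 14.6% and 17.3% of all genes in both directions together. The counts turned on single samples. Leaving out 1 sample gave 1 to 3 members with DNP (1 without PEP+/+ IgE replicate 2 or PEP-/- IgE replicate 2). It gave 3 to 7 with DEX in activated cells (7 without PEP+/+ IgE DNP DEX replicate 2). With DNP under DEX it gave 2 to 7 (2 without PEP+/+ IgE DEX replicate 2). The share of all genes called in these omissions is not given. The median member log2 fold change was 0.19, 0.16, 0.19 and 0.20, against 0.00, 0.00, -0.01 and -0.02 over all genes. The comparisons share samples. IgE is the control of both DNP and DEX in sensitized cells, and IgE DNP DEX is the treated group of the last 2. IgE DEX is the treated group of DEX in sensitized cells and the control of DNP under DEX. IgE DNP is the treated group of DNP and the control of DEX in activated cells.

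**Figure D3:**
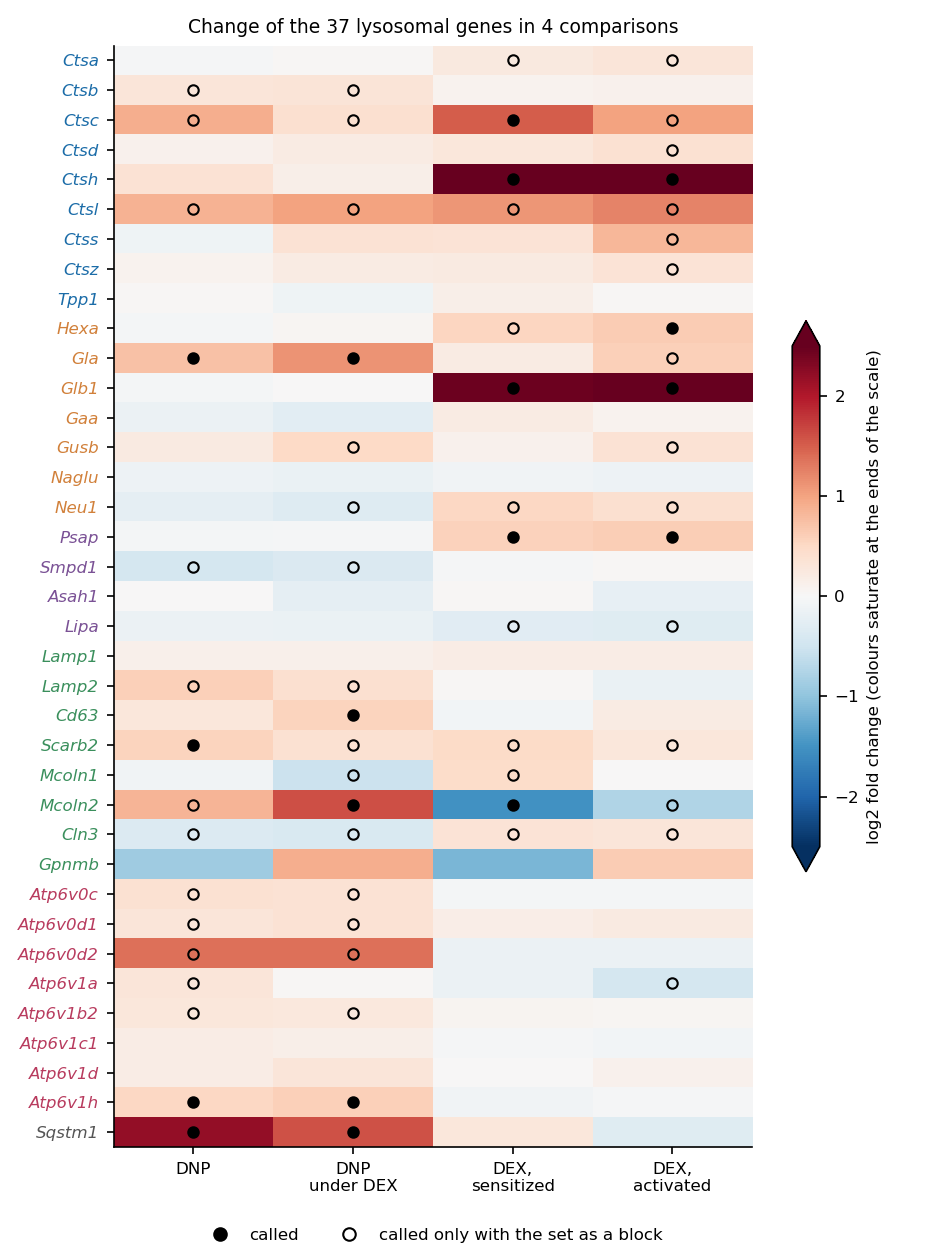
Colour gives the log2 fold change of each of the 37 genes (rows, grouped by role) in 4 comparisons (columns, mean over both genotypes). Filled circles mark called genes and open circles those called only with the set as a block; the DNP columns are led by Sqstm1 (2.19 and 1.60) and the DEX columns by Ctsh (3.23 and 3.01) and Glb1 (2.45 and 2.49).

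Among the 9 cathepsins and other peptidases, 9 had a positive fold change with DEX in both settings, beside 6667 and 6528 of all 13305 genes. In sensitized cells 2 were called and in activated cells 1, beside 5.4% and 5.67% of all genes called higher. Ctsh is among the 9 and among the calls in both settings. It passed the filter only through samples with DEX, so its sign and calls are a description. Ctsc encodes cathepsin C (dipeptidyl peptidase I), which activates granule serine proteases by removing their propeptides. Its CPM was 244, 162, 275 and 170 in the IgE samples (PEP+/+ replicates 1 and 2, then PEP-/- replicates 1 and 2, the order used throughout), 711, 458, 755 and 495 with DEX, 473, 285, 520 and 322 with DNP, and 907, 592, 1090 and 608 with both. Within each set the 4 treatments kept the same order in both genotypes, and replicate 2 was below replicate 1 in all 8 groups. DEX in sensitized cells raised Ctsc 2.84-fold (log2 fold change 1.51, SE 0.31, edgeR adjusted p 0.00916), and the IgE and IgE DEX samples did not overlap. The DNP difference was 0.91 (SE 0.30, edgeR adjusted p 0.0647) and the DEX difference in activated cells was 1.00 (SE 0.30, edgeR adjusted p 0.0603), neither called, while both were called with the block (adjusted p 1.24e-06 and 7.52e-07). The same-set differences of log2(CPM + 0.5) with DNP were close in the 4 pairs of samples, 0.95, 0.81, 0.92 and 0.92.

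Ctsh encodes cathepsin H, a cysteine protease with aminopeptidase activity (chr9:90054152-90076089, GRCm38). Its CPM was 0.147, 0.434, 0.273 and 0.257 in the IgE samples and 0.284, 0.45, 0.574 and 0.165 with DNP, against 4.82, 2.78, 2.59 and 1.02 with DEX and 5.08, 4.12, 1.96 and 1.81 with both. All 8 DEX samples lay above all 8 samples without DEX, and the 4 PEP-/- samples with DEX lay below the 4 PEP+/+ ones. The log2 fold change was 3.23 (SE 0.49, edgeR adjusted p 0.00153) in sensitized cells and 3.01 (SE 0.49, edgeR adjusted p 0.00238) in activated cells. The counts were small: 32 reads in total over the 8 samples without DEX and 349 over the 8 with DEX. Ctsh reached the filter's cutoff of 0.78 CPM in the 8 samples with DEX and in 0 without, so it was tested only because it was high with DEX and had to differ. Its calls are among the counts above and are a description. It was not tested with at least 10 counts in every sample. The genotype difference of Ctsh was -0.62 (SE 0.35, edgeR adjusted p 0.497), and its genotype by DEX interaction was not called.

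Ctsl, the gene of cathepsin L, had the third-largest change with DEX in activated cells but was not called (log2 fold change 1.24, SE 0.57, edgeR adjusted p 0.209). Its CPM was 3.12, 1.69, 5.82 and 2.26 with DNP and 10.0, 2.44, 11.3 and 6.47 with both, so these groups overlapped, and replicate 2 was below replicate 1 in all 8 groups. With the block the difference was 1.21 (adjusted p 0.000674). Ctsd, which encodes the abundant cathepsin D, ranged from 3840 to 6520 CPM, with log2 fold changes of 0.10 with DNP and 0.29 and 0.39 with DEX, none of them called; with the block the difference in activated cells was called (0.39, adjusted p 0.0163) and that in sensitized cells was not (adjusted p 0.0771). Of the others, Ctsb (cathepsin B) had 0.31 with DNP and 0.32 with DNP under DEX (edgeR adjusted p 0.0682 and 0.0658), and both were called with the block. Fdft1 on the opposite strand overlaps 12.8% of the Ctsb exons. Ctsa, Ctss, Ctsz and Tpp1 had log2 fold changes from -0.10 to 0.83 over the 4 comparisons, and none was called without the block. With it, Ctsa, Ctss and Ctsz were called higher with DEX in activated cells (adjusted p 0.0159, 0.0152 and 0.0322), and Ctsa also in sensitized cells (adjusted p 0.044).

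Glb1, which encodes lysosomal beta-galactosidase (chr9:114401076-114474898), was the member with the lowest p-values under DEX. Its CPM was 210, 217, 262 and 221 in the IgE samples and 220, 205, 257 and 203 with DNP. With DEX it was 1390, 1140, 1400 and 1030, and with both 1380, 1190, 1360 and 1050. The 8 samples with DEX, at 1030 CPM or more, did not overlap the 8 without, at 262 CPM or less. DEX raised Glb1 5.46-fold in sensitized cells (log2 fold change 2.45, SE 0.16, edgeR adjusted p 3.97e-06) and 5.63-fold in activated cells (2.49, SE 0.16, edgeR adjusted p 3.13e-06). By genotype the log2 fold change was 2.56 in PEP+/+ and 2.33 in PEP-/- sensitized cells, and 2.60 and 2.39 in activated cells. With DNP it was -0.04 (SE 0.16) and with DNP under DEX 0.01 (SE 0.16). Tmppe overlaps 165 bases (5.49%) of the Glb1 exons on the same strand, so reads there could not be split between them by strand.

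Gla, the alpha-galactosidase A gene (chrX:134588149-134601125), moved with antigen. It had 24.8, 20.6, 30.9 and 20.8 CPM in the IgE samples and 36.6, 37.4, 48.5 and 39.0 with DNP. It had 28.9, 24.9, 34.5 and 23.5 CPM with DEX and 72.5, 49.2, 64.6 and 57.5 with both, and neither pair of groups overlapped. DNP raised Gla by 0.73 on the log2 scale (SE 0.19, edgeR adjusted p 0.0219), and DNP under DEX by 1.12 (SE 0.19, edgeR adjusted p 0.00292). The first call was lost without PEP+/+ IgE replicate 2, PEP+/+ IgE DNP replicate 2, PEP-/- IgE replicate 2 or PEP-/- IgE DNP replicate 1 (0.60 to 0.72, edgeR adjusted p 0.0559 to 0.0983), and the second held whichever library was left out.

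Hexa, the alpha subunit gene of beta-hexosaminidase, was 234, 212, 308 and 233 CPM with DNP and 482, 320, 403 and 324 with DNP and DEX, without overlap. The difference was 0.64 (SE 0.17, edgeR adjusted p 0.0321), and in sensitized cells 0.54 (SE 0.17, edgeR adjusted p 0.07), which was not called. The call in activated cells was lost in 5 of 8 omissions: PEP+/+ IgE DNP replicate 1 or 2, PEP-/- IgE DNP replicate 2, PEP+/+ IgE DNP DEX replicate 1 or PEP-/- IgE DNP DEX replicate 1. Tmem202 on the opposite strand overlaps 12.8% of the Hexa exons. The sialidase gene Neu1 had 0.52 in sensitized and 0.41 in activated cells (edgeR adjusted p 0.0798 and 0.148; called with the block in both). Gusb (beta-glucuronidase) had 0.23 with DNP and 0.49 with DNP under DEX and was called in the second, and with DEX in activated cells (0.37), with the block. Gaa (acid alpha-glucosidase) and Naglu (alpha-N-acetylglucosaminidase) were called in none of the 4 comparisons in either fit, with log2 fold changes from -0.26 to 0.20.

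Of the 4 lipid-degrading enzymes and saposins, Psap rose with DEX. Psap (chr10:60277627-60302597) encodes prosaposin, the precursor of the saposins that present sphingolipids to their hydrolases. Its CPM was 393, 408, 417 and 469 in the IgE samples and 586, 595, 703 and 648 with DEX. With DNP it was 355, 397, 427 and 448, and with both 644, 620, 596 and 623. The samples with DEX lay above those without in both settings, with no overlap. The log2 fold change was 0.58 (SE 0.11, edgeR adjusted p 0.00504) in sensitized cells and 0.61 (SE 0.11, edgeR adjusted p 0.0038) in activated cells. With DNP it was -0.05 and with DNP under DEX -0.02. Smpd1 (acid sphingomyelinase) had -0.43 with DNP and -0.37 with DNP under DEX and was called lower in both with the block, though not without it. Lipa, which hydrolyses cholesteryl esters, had -0.29 and -0.31 with DEX and was likewise called lower in both settings only with the block. Leaving out 1 sample moved the value in sensitized cells from -0.55 to 0.04, the latter without PEP+/+ IgE replicate 1. Asah1 was called in none of the 4 comparisons in either fit.

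Glb1, Ctsh, Ctsc, Hexa and Psap moved with DEX in samples where the summed macrophage list was also higher, 284 to 845 CPM against 69.9 to 232 CPM. Most of the summed level was Cx3cr1, whose log2 fold change with DEX was 1.64 in sensitized and 1.81 in activated cells (edgeR adjusted p 0.000476 and 0.000248). The macrophage surface gene Adgre1 had 0.38 and -0.27 and the list's Cd14 had 0.16 and -0.70, and neither was called. C1qa, Mrc1 and Ly86 were at or near 0. The complement gene C1qc, also on the list, was called higher with DEX, with 0 to 0.328 CPM in the 8 samples without DEX and 0.631 to 2.08 CPM in the 8 with it (3.05 and 3.08, edgeR adjusted p 0.00743 and 0.00755). The erythroid marker Hba-a1 was called higher as well, with 0.055 to 0.41 CPM without DEX and 0.203 to 6.12 CPM with it (3.65 and 4.33, edgeR adjusted p 0.00852 and 0.00347). Both reached the filter's cutoff only in samples with DEX, 7 of the 8. They were thus tested only because they were high with DEX and had to differ, and their calls are a description. The sum of the basophil list was lower with DEX, through Cd200r3 alone (-1.12 and -0.94, edgeR adjusted p 0.000188 and 0.000658). Its other markers were not called: Mcpt8 had -0.16 and -0.21, and Prss34 had 0.08 and 0.34. The part of these cell types in the DEX changes was not tested.

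**Figure D4:**
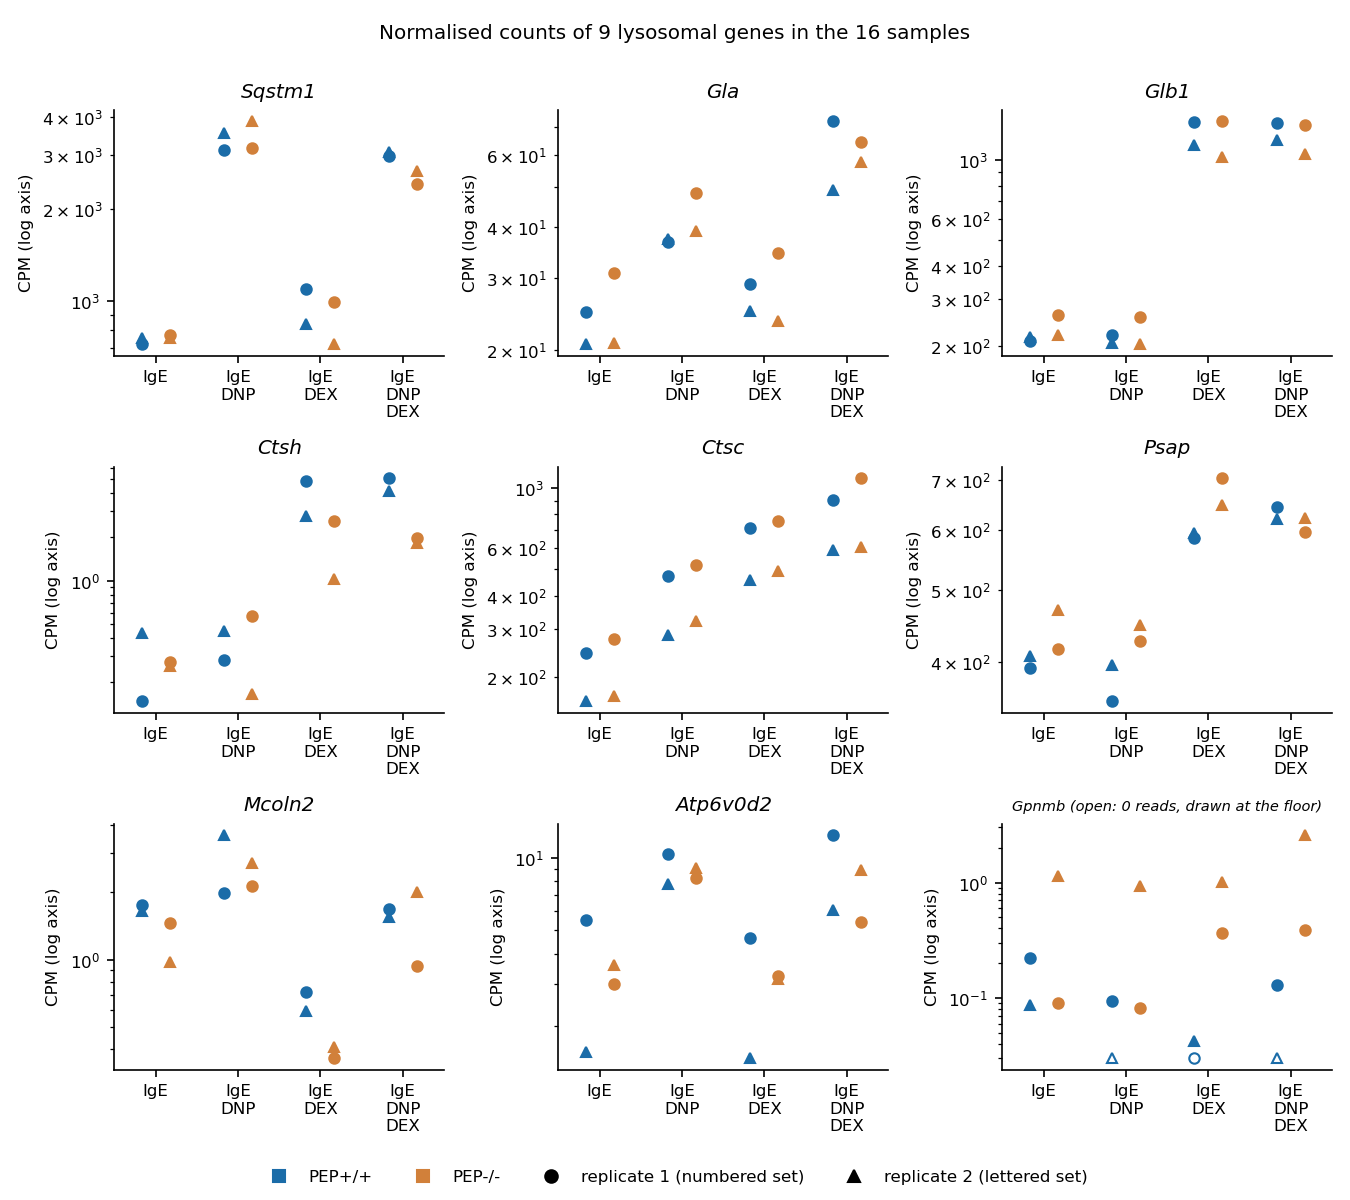
CPM on a log axis of 9 genes in each of the 16 samples by treatment, with PEP+/+ in blue, PEP-/- in orange, replicate 1 as circles and replicate 2 as triangles; open symbols are samples with 0 reads of Gpnmb drawn at the bottom of the axis. Glb1 and Ctsh split by DEX, Sqstm1 and Gla by DNP, and Mcoln2 falls with DEX and lies higher with DNP, while Gpnmb is highest in the 4 lettered PEP-/- samples.

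Among the 8 membrane proteins and channels, the mucolipin gene Mcoln2 moved in opposite directions with the 2 treatments. Mcoln2 (chr3:146149833-146195513) encodes TRPML2, a cation channel of recycling endosomes and lysosomes. Its CPM was 1.76, 1.65, 1.46 and 0.977 in the IgE samples, 0.717, 0.589, 0.363 and 0.407 with DEX, 1.99, 3.60, 2.13 and 2.70 with DNP, and 1.69, 1.56, 0.938 and 2.00 with both. DEX in sensitized cells lowered it (log2 fold change -1.51, SE 0.35, edgeR adjusted p 0.0193), and DNP under DEX raised it (1.61, SE 0.35, edgeR adjusted p 0.0125), without overlap of the groups in either comparison. Both calls use the same IgE DEX samples, as the treated group in the first and as the control in the second. Low values in that group give both signs, so the 2 calls are not independent. The differences with DNP alone (0.85, edgeR adjusted p 0.106) and with DEX in activated cells (-0.75, edgeR adjusted p 0.187) were not called, and both were called with the block. These values rest on 4 to 49 reads per sample. The first call was lost in 5 of 8 omissions (PEP+/+ IgE replicate 1, PEP-/- IgE replicate 1, PEP+/+ IgE DEX replicate 2, PEP-/- IgE DEX replicate 1 or 2; edgeR adjusted p 0.0565 to 0.0859) and the second in 3 of 8 (PEP+/+ IgE DEX replicate 2, PEP-/- IgE DEX replicate 1, PEP-/- IgE DNP DEX replicate 2; edgeR adjusted p 0.056 to 0.0594).

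Its relative Mcoln1, which encodes the lysosomal calcium channel TRPML1, had 0.46 with DEX in sensitized cells (edgeR adjusted p 0.121) and -0.53 with DNP under DEX (edgeR adjusted p 0.0595). Both differences were called with the block, and the second was negative in 4 of 4 same-set pairs, where that of Mcoln2 was positive in 4 of 4. Scarb2 encodes LIMP-2, the receptor that carries glucocerebrosidase to lysosomes. It was 19.8, 21.2, 19.1 and 21.1 CPM in the IgE samples and 24.8, 33.2, 25.6 and 36.5 with DNP, a rise of 0.56 (SE 0.15, edgeR adjusted p 0.0284). The groups did not overlap, but the call was lost in 6 of 8 omissions (edgeR adjusted p up to 0.147) and held without PEP+/+ IgE DNP replicate 1 or PEP-/- IgE DNP replicate 1.

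Cd63 (chr10:128900989-128912822) was 1830, 1580, 1670 and 1630 CPM with DEX and 3420, 2120, 2110 and 2320 with DNP and DEX. It rose by 0.56 (SE 0.15, edgeR adjusted p 0.0359). PEP+/+ IgE DNP DEX replicate 1, the sample with the fewest reads on genes, was far above the other 3, and without it the difference was 0.39 (edgeR adjusted p 0.0878). The call held in 1 of 8 omissions, that of PEP+/+ IgE DNP DEX replicate 2. With DNP alone the difference was 0.28 (edgeR adjusted p 0.292). Lamp2 had 0.59 with DNP and Cln3, a lysosomal membrane protein gene mutated in Batten disease, had -0.34, and both were called only with the block. Lamp1, at 391 to 572 CPM, was called in none of the 4 comparisons in either fit, and its log2 fold changes were 0.12 to 0.19.

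The 8 proton pump subunits had positive log2 fold changes with DNP, from 0.19 to 1.37 with a median of 0.30, and again with DNP under DEX, from 0.02 to 1.38 with a median of 0.34. One was called in each comparison, and with the block 6 of 8 were called with DNP and 5 of 8 with DNP under DEX, beside 18.6% and 18.4% of all genes called higher. The same-set differences with DNP were positive in 4 of 4 pairs for each of the 8 subunits. Under DEX this held for 7, and Atp6v1a had 3 of 4, with -0.26 in the numbered PEP+/+ pair. Without PEP+/+ IgE DNP replicate 1, the difference of Atp6v1a with DNP was -0.05. Of 11 other pump subunits tested, 8 had a positive and 3 a negative difference with DNP (Atp6v0a1 -0.16, Atp6v0a2 -0.15 and Atp6v1g2 -0.28), with a median of 0.29, and under DEX the same 3 were negative and the median was 0.27. With DEX itself the median of the 8 members was -0.03 in both settings and none of the 8 was called. At an unadjusted p under 0.05 there were 0 in either setting, beside 2578 and 3180 of all 13305 genes. DESeq2 called 0 of the 8. With the block, Atp6v1a was called lower with DEX in activated cells (-0.40).

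Atp6v1h, a regulatory subunit of the cytosolic V1 sector (chr1:5070018-5162529), was the subunit called. It was 71.2, 69.7, 63.3 and 56.1 CPM in the IgE samples and 107, 79.8, 96.1 and 89.6 with DNP, and 69.3, 58.3, 59.9 and 55.8 with DEX against 114, 78.8, 92.7 and 83.3 with both. Neither pair of groups overlapped. The rise was 0.52 (SE 0.15, edgeR adjusted p 0.0318) without DEX and 0.60 (SE 0.15, edgeR adjusted p 0.0217) with it. The calls were lost in 7 of 8 and 5 of 8 omissions, with differences of 0.40 to 0.61 and 0.48 to 0.74 over all omissions. The first held without PEP+/+ IgE DNP replicate 2. The second held without PEP+/+ IgE DEX replicate 1, PEP+/+ IgE DNP DEX replicate 2 or PEP-/- IgE DNP DEX replicate 2.

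Atp6v0d2 encodes the d2 form of a membrane-sector subunit, best known from osteoclasts and macrophages, whereas Atp6v0d1 encodes the widely expressed d1 form. Atp6v0d2 had the largest difference of the 8 subunits: 5.51, 1.56, 3.00 and 3.60 CPM in the IgE samples and 10.4, 7.76, 8.20 and 9.08 with DNP. It was 4.63, 1.47, 3.22 and 3.15 CPM with DEX and 12.4, 6.06, 5.40 and 8.85 with both. The groups did not overlap in either comparison, but the differences of 1.37 (SE 0.43, edgeR adjusted p 0.052) and 1.38 (SE 0.43, edgeR adjusted p 0.0617) missed the threshold, and both were called with the block (adjusted p 0.00469 and 0.00486). Atp6v0d1 was 209 to 251 CPM in the IgE samples and 236 to 315 with DNP, a difference of 0.30 (SE 0.12, edgeR adjusted p 0.107). In the IgE samples the d1 gene had 368 TPM and the d2 gene 3.82 TPM.

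**Figure D5:**
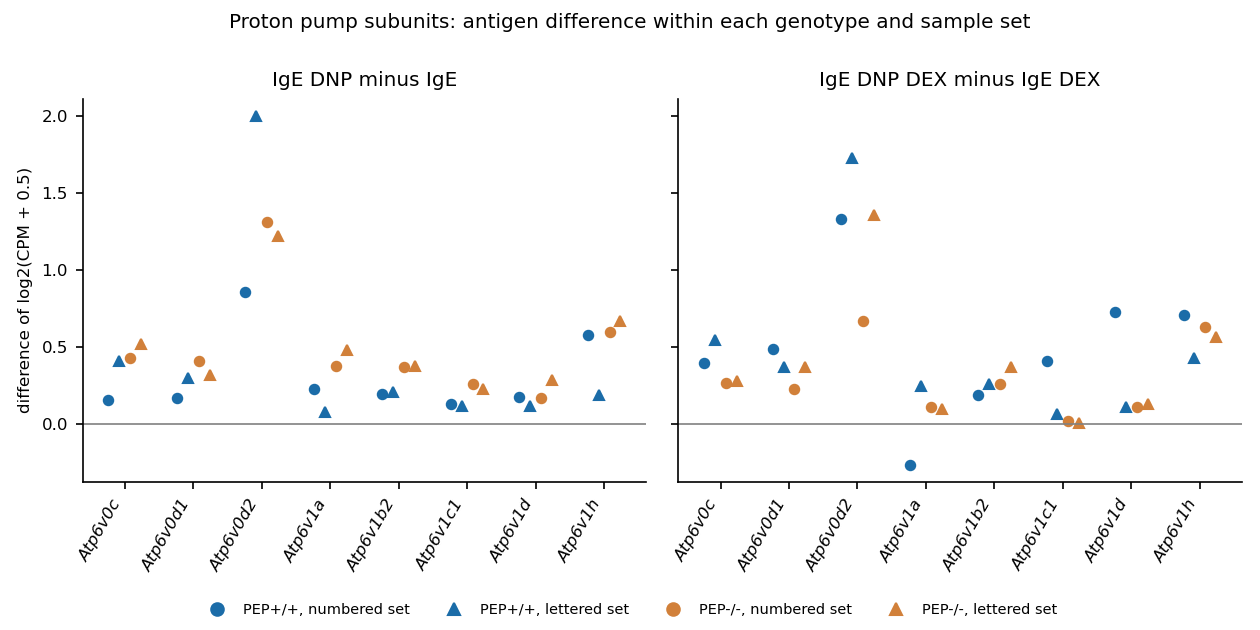
Difference of log2(CPM + 0.5) for 8 proton pump subunits between the sample with and without antigen of the same genotype and set, without DEX (left) and with DEX (right); colour gives the genotype and shape the set. All points lie above 0 without DEX, Atp6v1a has 1 point at -0.26 with DEX, and Atp6v0d2 reaches 2.00.

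Sqstm1 (chr11:50199366-50210827) encodes p62, which links ubiquitinated cargo to autophagosomes and is itself degraded in lysosomes. Its CPM was 719, 755, 775 and 757 in the IgE samples and 3120, 3530, 3170 and 3870 with DNP. With DEX it was 1090, 839, 990 and 724, and with both 2970, 3060, 2410 and 2650. The 8 samples with DNP did not overlap the 8 without. DNP raised Sqstm1 4.55-fold (log2 fold change 2.19, SE 0.15, edgeR adjusted p 3.47e-06), with 2.17 in PEP+/+ and 2.20 in PEP-/-. Under DEX the rise was 3.03-fold (1.60, SE 0.15, edgeR adjusted p 6.41e-05). DEX itself gave 0.28 in sensitized and -0.31 in activated cells, neither called. Mrnip on the opposite strand overlaps 17.3% of the Sqstm1 exons, and whether reads were counted by strand is not given in the sources used here.

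Whether DEX altered the antigen response was tested as the DNP by DEX interaction. In edgeR 0 of the 37 members were called, beside 0.331% of all genes. At an unadjusted p under 0.05 there was 1 member (Sqstm1), beside 485 of all 13305 genes. DESeq2 also called 0, beside 0.759%. Sqstm1 had an interaction of -0.59 (SE 0.21, edgeR adjusted p 0.949, unadjusted 0.0169), Mcoln2 0.76 (SE 0.47) and Gpnmb 1.78 (SE 2.01). With the block 1 member was called, Ctsc at -0.51 (adjusted p 0.046), beside 1.57% of all genes. Its same-set differences with DNP were 0.81 to 0.95 without DEX and 0.30 to 0.53 under DEX.

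Between genotypes (PEP-/- against PEP+/+, mean over the 4 treatments) edgeR called 0 of 37 members, beside 0.428% of all genes called higher and 1.16% lower. At an unadjusted p under 0.05 there were 2 members, Tpp1 and Gpnmb, beside 1884 of all 13305 genes. DESeq2 called 1, Tpp1, beside 5.24% of all genes. With the block 5 members were called higher and 0 lower, beside 7.72% and 9.64%: Ctsl (0.86), Tpp1 (0.31), Lipa (0.27), Lamp2 (0.21) and Gpnmb (3.58). Gpnmb reached the filter's cutoff in 0 PEP+/+ samples and 4 PEP-/- samples. It was tested only because it was high in PEP-/- cells, so its place in these counts is a description. Tpp1 was 189, 181, 224 and 224 CPM in the IgE samples, and its log2 difference was 0.31 (SE 0.09, edgeR adjusted p 0.112, DESeq2 adjusted p 0.00924). It was positive in 8 of 8 same-set pairs, from 0.04 to 0.65, and so were those of Ctsa, Ctsc, Ctsl, Lipa and Cln3. These pairs are 4 treatments in each of 2 sets. The labels do not say whether a set was prepared together, so the 8 pairs may not be independent. Ctsl differed by 0.81 (SE 0.40, edgeR adjusted p 0.416).

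Gpnmb, the gene of a glycoprotein of melanosomes and lysosomes that is high in macrophages, had the largest genotype difference (log2 3.56, SE 0.86, edgeR adjusted p 0.0655), on few reads. The 8 PEP+/+ samples had 7 reads in total, with 0 to 3 each. The 4 numbered PEP-/- samples had 1 to 7 reads each and the 4 lettered ones 10 to 27. The genotypes therefore overlapped in the numbered set and did not in the lettered set. Gpnmb reached the filter's cutoff of 0.78 CPM only in the 4 lettered PEP-/- samples, so it too was tested only because it was high in one genotype, and its difference is a description. Cx3cr1, on the macrophage list, was also higher in PEP-/- cells (0.76, edgeR adjusted p 0.0278). The other markers of that list that were tested were not called: Adgre1 had -0.03, C1qc 0.26 and Cd14 0.41. The part of such cells in the genotype differences was not tested. Whether the genotypes differed in their response was tested next. In edgeR the genotype by DNP interaction was called for 0 members and 0% of all genes, with or without the block, and the genotype by DEX interaction in activated cells likewise for 0 members and 0% of all genes. No member had an unadjusted p under 0.05 in either interaction without the block, 30 and 95 genes did over all genes, and DESeq2 called 0 genes in both. Both 30 and 95 are fewer genes than a p under 0.05 would give by chance over all genes tested. The fit without the block counts the difference between the sets as spread. The 0 calls therefore do not show that the genotypes responded alike.

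A further 77 lysosomal genes were looked up, of which 67 were tested. With DNP 3 rose and 3 fell, beside 9.07% and 7.58% of all genes, and with DEX in sensitized cells 7 rose and 0 fell, beside 5.4% and 3.98%. With DEX in activated cells 11 rose and 1 fell, beside 5.67% and 4.99%, and with DNP under DEX 2 rose and 3 fell, beside 7.19% and 5.42%. Their median log2 fold changes were -0.02, 0.12, 0.10 and -0.03. The number at an unadjusted p under 0.05 with DEX in sensitized cells was 18 of the 67, beside 2578 of all 13305 genes. With the block 6 rose and 15 fell with DNP, beside 18.6% and 19.3%, 22 and 4 with DEX in sensitized cells, beside 12.9% and 13.8%, 25 and 6 with DEX in activated cells, beside 15.9% and 17.4%, and 9 and 16 with DNP under DEX, beside 18.4% and 19.2%.

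Several of the genes called with DEX are described here. Galc, which removes galactose from galactosylceramide with the help of a saposin, went from 28.6 to 41.9 CPM in the IgE samples to 144 to 181 with DEX (log2 fold change 2.24 in sensitized and 2.33 in activated cells). Acp5, the tartrate-resistant acid phosphatase gene, rose by 1.78 in activated cells, from 0.946 to 1.72 CPM to 1.31 to 7.12 CPM. Gnptg, a subunit of the enzyme that starts the mannose-6-phosphate tag, rose by 0.97 and 0.94, and Ctsf (cathepsin F) by 1.06 and 0.99. The cholesterol exporter gene Npc1 rose by 0.82 in sensitized cells.

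With DNP, the cation-dependent mannose-6-phosphate receptor gene M6pr rose by 0.82 and the proton pump subunit gene Atp6v0e by 0.45, while the heparan sulfatase gene Sgsh fell by 0.83, the cystine transporter gene Ctns by 0.67 and Nagpa, which uncovers the mannose-6-phosphate tag, by 0.59. Slc11a1, a metal transporter of phagosomes, rose by 2.76 at low levels, from 0.0735 to 0.514 CPM to 0.82 to 2.81 CPM, and it reached the filter's cutoff in 5 samples with DNP and 0 without, so it was tested only because it was high with DNP. Between genotypes 1 of the 67 was called, the asparaginyl endopeptidase gene Lgmn (1.41, edgeR adjusted p 0.0451), beside 0.428% of all genes called higher and 1.16% lower. Lgmn had 3 to 54 reads per sample and reached the filter's cutoff in 8 PEP-/- samples and 2 PEP+/+ samples, so this call rests on few reads. With the block 18 of the 67 were called higher and 0 lower, beside 7.72% and 9.64%.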

How the data were processed

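Poly(A) RNA of 16 BMMC samples was sequenced with a stranded kit as paired reads. Per the labels and the study's methods, the authors aligned reads with TopHat2 to GRCm38 and deposited raw read counts per gene from HTSeq, whose strand setting is not given in the sources used here. Non-gene rows were left out, and 96.2% of 39179 gene IDs were named with GENCODE M21. Counts were tested in edgeR 4.0.16 (R 4.3.3, limma 3.58.1): filterByExpr (minimum count 10), TMM, 1 mean for each of 8 groups, quasi-likelihood test with 8 residual degrees of freedom, and Benjamini-Hochberg adjustment over all 13305 genes at 0.05. The scripts were tested on simulated data.

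Depth was 8612531 to 22143526 reads on genes per sample. Alternatives were DESeq2 1.42.0, its size factors, other filters, the groups compared alone, each sample left out, and the numbered or lettered set of the labels as a replicate block. The numbers pair the samples: deviations from the group means correlated between groups at 0.454 to 0.835 (median 0.758), over 0.1 in 28 of 28 pairs of groups. The labels do not say whether a set was prepared together. Members called in any of the comparisons, and the 3 with the largest change in each, get full statistics. Members and lists were chosen with earlier results of these data known. Promoter windows are from RefSeq (GRCm38.p6). TPM used GENCODE exon lengths.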

Additional observations from a re-analysis of the deposited data

How the results depend on the processing

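With the replicate block the members called were 16 with DNP (4 without the block), 13 with DEX in sensitized cells (5), 18 with DEX in activated cells (4), 19 with DNP under DEX (5), 1 for the DNP by DEX interaction (0) and 5 for genotype (0). The 5 for genotype include Gpnmb, which passed the filter only through PEP-/- samples. DESeq2 gave 10, 8, 7 and 10 for the 4 treatment comparisons and 1 for genotype, beside 20.3%, 12.5%, 14.6%, 17.3% and 5.24% of all genes. At least 10 counts in every sample gave 8 with DNP and 8 with DNP under DEX, and no filter gave 1 for genotype. The groups compared alone gave 2 with DNP under DEX. The cause was not tested. For these settings and the omissions below, the share of all genes called is not given, so the counts cannot be read against it. Leaving out 1 sample gave 1 to 3 members with DNP, 4 to 5 with DEX in sensitized cells, 3 to 7 with DEX in activated cells, 2 to 7 with DNP under DEX, and 0 for genotype and each interaction. The count with DNP was 1 without PEP+/+ IgE replicate 2 or PEP-/- IgE replicate 2, and 2 without PEP+/+ IgE DNP replicate 2, PEP-/- IgE replicate 1 or PEP-/- IgE DNP replicate 1 or 2. With DEX in activated cells it was 7 without PEP+/+ IgE DNP DEX replicate 2. With DNP under DEX it was 2 without PEP+/+ IgE DEX replicate 2, and 3 without PEP+/+ IgE DNP DEX replicate 1, PEP-/- IgE DEX replicate 1 or 2, or PEP-/- IgE DNP DEX replicate 1 or 2. Atp6v1a with DNP ranged from -0.05 (without PEP+/+ IgE DNP replicate 1) to 0.59, and Lipa with DEX in sensitized cells from -0.55 to 0.04 (without PEP+/+ IgE replicate 1); neither was called. Of 18 called values, 0 lost the call under DESeq2, its size factors or the block, 4 without a filter and 5 with the groups compared alone. Leaving out 1 sample ended 42 of 144 calls, and none of those of Sqstm1, Glb1, Psap or Ctsc. The 18 values and the 144 calls include those of Ctsh. It kept its calls, but it was tested only because it was high with DEX, so that does not bear on them. Within each set alone, 0 of the 18 called values changed sign. The block took no call away, and the shares of all genes called with it stand beside the member counts above. The groups compared alone could not be applied to the DNP by DEX interaction or the genotype, which use all groups. Members with few reads (Ctsh, Gpnmb, Mcoln2, Ctsl, Ctss) are limited by depth.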
